A study of Mus musculus with 12 samples.

Results

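Glycolysis and the response to low oxygen were followed here through 43 genes, measured in liver sinusoidal endothelial cells, which line the fenestrated capillaries of the liver. The genes came from a list of 46 named for their part in glucose uptake, glycolysis, oxygen sensing or induction by hypoxia. They were matched by gene symbol to the 24704 genes named on the arrays, and Gpi1, Eno1 and Pfkfb1 had no row under their symbol in the platform annotation and were not analysed here. The 43 comprised 2 glucose transporters, 14 glycolytic enzymes, 6 regulators of glycolytic flux, 8 genes of hypoxia-inducible factor (HIF) and its oxygen sensors, and 13 other hypoxia-inducible genes.

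Cells of 2 groups of mice were compared, each with 6 samples that the labels call biological replicates. NICD-OE-HEC mice carried Clec4g-Cre(tg/wt), with the Cre recombinase under control of the Clec4g gene of hepatic endothelium, and Rosa26-N1ICD-IRES-GFP, an allele that yields the Notch1 intracellular domain (N1ICD), the active fragment of the receptor, together with green fluorescent protein. The other group is labelled Control; the sources used here do not give its full genotype, nor the age and sex of either group. Each sample pooled livers of 3 mice, from which cells were taken by collagenase digestion, a density gradient and magnetic beads against CD146, and was hybridised to 1 Affymetrix array. Values are log2 expression after RMA normalization (background correction, quantile normalization and summary per probe set), and all differences are NICD-OE-HEC minus Control.

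In glycolysis, glucose enters the cell through a transporter and is split into pyruvate, which is either reduced to lactate or passed into mitochondria. HIF is a transcription factor with an oxygen-labile alpha subunit and a stable partner: when oxygen is present, prolyl hydroxylases of the EGLN family mark the alpha subunit, VHL binds it and it is degraded. When oxygen falls, HIF accumulates and activates genes of glucose uptake, glycolysis, lactate formation, mitophagy and vascular growth. Endothelial cells are known for relying on glycolysis more than on mitochondrial respiration even when oxygen is plentiful.

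All 12 sinusoidal endothelial markers lay above the array median of 3.67 in both groups. Of these 8 fell, all without overlap between groups (Stab2 with a difference of -1.32). The 3 that rose were Lyve1 (0.83), Mcam (0.92) and Pecam1 (0.33), and Cdh5 was not called (0.01). The mean of the list ran from 10.76 to 11.01 in Control and from 10.51 to 10.72 in NICD-OE-HEC. Other cells were also represented. Of 9 neutrophil markers 6 rose, the mean of the list moving from a range of 3.51 to 4.80 in Control to 5.14 to 7.14, with Ly6g and Mpo below the array median in both groups. Of 10 hepatocyte markers 6 rose (6.26 to 7.68 against 7.03 to 8.54). All 5 measured cholangiocyte markers rose (3.98 to 4.41 against 4.71 to 5.16). Of 9 stellate and mural cell markers 3 rose, among them Col1a1 (2.49), and 1 fell (5.07 to 6.17 against 5.78 to 6.30), and of 5 platelet markers 2 rose (4.08 to 4.36 against 4.38 to 4.82). Of 9 Kupffer cell markers 1 was called higher (7.68 to 8.90 against 7.89 to 9.36), while all 9 differences were above 0. Early-response genes such as Fos and Egr1, which cell isolation can induce, rose in 13 of 16 cases (6.36 to 7.60 against 7.50 to 9.07). In a bulk sample, fewer cells of a type and less RNA per cell cannot be told apart. Control 2 and NICD-OE-HEC 4 stood apart from the other arrays on the second principal component, and calls that change without them are given beside the genes.

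The 2 listed glucose transporters, part of the glycolytic enzymes and part of the hypoxia-inducible genes were higher in NICD-OE-HEC cells. The HIF subunits and the regulators of flux gave no call and, of the oxygen sensors, Egln3 alone was called. With limma and an adjusted p under 0.05 over all probe sets, 14 of the 43 genes rose, against 4.89% of all probe sets, and 3 fell, against 5.59%. Together 39.5% were called, against 10.5% in both directions. Dim probe sets are part of these background shares, whereas 5 of the 43 genes had both means below the array median. With the dimmest 50% of probe sets left out, 1325 of the rest were called higher and 1629 lower, a larger share than over all probe sets. Of the genes still tested, 16 were then called higher and 4 lower. A call together with a log2 difference of 1 or more was reached by 5 of them, Egln3, Slc2a1, Slc2a3, Ankrd37 and Bhlhe40, all higher, where 2.09% of all probe sets met both conditions. The groups did not overlap for 10 of the 43, against 6.68% of all probe sets: all NICD-OE-HEC arrays lay above all Control arrays for 9 (background 2.98%) and below them for Ndrg1 (background 3.7%). The median difference over the 43 was 0.15, where that over all probe sets was -0.01.

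**Figure D1:**
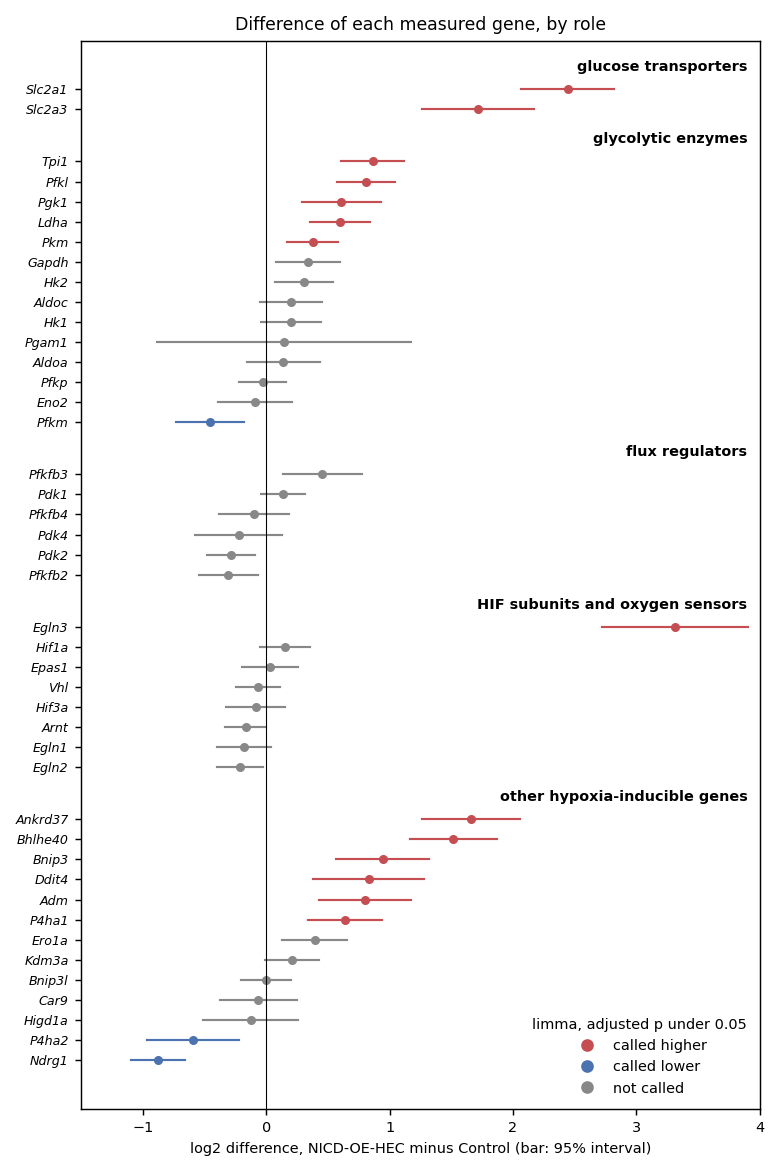
Log2 difference, NICD-OE-HEC minus Control, for each of the 43 genes (points) with its 95% interval (bars), grouped by role, n = 6 arrays per group. Red genes were called higher and blue genes lower; the largest difference is that of Egln3 (3.31) and the most negative that of Ndrg1 (-0.88).

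Sequences upstream of the genes are shown because HIF acts through a short DNA core, ACGTG or GCGTG, called the hypoxia response element. The 250 bases before the gene start were searched on both strands, taking the most upstream start of a gene. Of the 43 genes 38 had an entry in the set of RefSeq promoters used here (GRCm38.p6). Slc2a3, Epas1, Bnip3l, Ndrg1 and Bhlhe40 had no entry in it. Slc2a3 and Bhlhe40, which rose, and Ndrg1, which fell, were thus not searched. Bases are numbered backwards from the gene start, the last base before it being -1, and a core is given by its first base on the strand printed. The core was present in 32 of these 38 promoters (84.2%), against 38.6% of 27025 genes in the set. That background was not limited to genes on the arrays, to expressed genes or to promoters of like base composition, and no test was made. It was present in 10 of 12 promoters of genes that rose (83.3%) and in 20 of 24 of genes not called (83.3%), so these letters were as frequent before genes that rose as before genes that gave no call. All 10 other hypoxia-inducible genes with an entry held it, and 9 of 14 glycolytic enzymes did (64.3%). TGGGAA, the core bound by RBPJ, the DNA-binding partner of the Notch intracellular domain, was present on either strand in 5 of the 38 (13.2%), against 21.5% of all genes. The 5 were Pgk1, Adm, Aldoc, Gapdh and Pdk4, of which Pgk1 and Adm rose. A match of letters is a description and does not show binding.

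The 6 promoters below belong to genes that rose with no overlap between groups and that held the core, ordered by size of difference. Capitals mark each ACGTG or GCGTG on either strand (CACGT and CACGC on the strand printed), and the palindrome CACGTG, also an E-box, counts on both strands.
Egln3, chr12:54203875-54204124, minus strand: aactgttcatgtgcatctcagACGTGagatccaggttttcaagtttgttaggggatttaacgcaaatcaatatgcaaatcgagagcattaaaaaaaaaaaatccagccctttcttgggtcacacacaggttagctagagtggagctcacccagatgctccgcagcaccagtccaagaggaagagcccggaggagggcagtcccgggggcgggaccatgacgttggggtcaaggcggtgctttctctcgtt
Slc2a1, chr4:119108495-119108744, plus strand: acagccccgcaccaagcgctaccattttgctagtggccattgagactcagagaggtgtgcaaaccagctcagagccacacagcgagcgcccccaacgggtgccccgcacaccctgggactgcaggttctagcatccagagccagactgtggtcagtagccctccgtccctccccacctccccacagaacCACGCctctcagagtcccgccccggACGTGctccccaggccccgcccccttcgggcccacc
Ankrd37, chr8:45999851-46000100, minus strand: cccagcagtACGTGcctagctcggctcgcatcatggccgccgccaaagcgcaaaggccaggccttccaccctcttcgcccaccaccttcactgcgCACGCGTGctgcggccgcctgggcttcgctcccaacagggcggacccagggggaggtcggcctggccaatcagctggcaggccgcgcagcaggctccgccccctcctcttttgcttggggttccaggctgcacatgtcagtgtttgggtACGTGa
Pfkl, chr10:78009808-78010057, minus strand: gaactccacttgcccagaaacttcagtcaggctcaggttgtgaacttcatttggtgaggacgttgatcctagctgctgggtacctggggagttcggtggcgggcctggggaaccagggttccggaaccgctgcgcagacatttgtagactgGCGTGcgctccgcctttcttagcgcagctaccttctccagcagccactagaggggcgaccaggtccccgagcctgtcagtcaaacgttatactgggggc
Adm, chr7:110627407-110627656, plus strand: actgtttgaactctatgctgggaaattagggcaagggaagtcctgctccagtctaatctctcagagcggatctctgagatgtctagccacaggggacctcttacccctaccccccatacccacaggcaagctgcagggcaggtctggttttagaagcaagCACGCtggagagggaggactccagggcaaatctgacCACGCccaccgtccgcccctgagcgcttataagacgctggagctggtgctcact
Ldha, chr7:46845554-46845803, plus strand: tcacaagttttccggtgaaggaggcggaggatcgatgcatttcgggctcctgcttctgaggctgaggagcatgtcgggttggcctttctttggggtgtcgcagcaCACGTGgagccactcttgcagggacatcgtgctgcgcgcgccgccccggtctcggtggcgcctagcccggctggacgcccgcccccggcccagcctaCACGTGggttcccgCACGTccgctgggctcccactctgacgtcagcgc
The core of Slc2a1 lay at -61 and -36, that of Egln3 once at -229, and that of Ldha at 5 overlapping or separate places, of which the one beginning at -34 lay nearest the start. For contrast, chosen after the values were seen, the promoters of Egln1 and Pfkp are shown, which held the core 2 and 3 times. These are close relatives of Egln3 and Pfkl and were not called.
Egln1, chr8:124949255-124949504, minus strand: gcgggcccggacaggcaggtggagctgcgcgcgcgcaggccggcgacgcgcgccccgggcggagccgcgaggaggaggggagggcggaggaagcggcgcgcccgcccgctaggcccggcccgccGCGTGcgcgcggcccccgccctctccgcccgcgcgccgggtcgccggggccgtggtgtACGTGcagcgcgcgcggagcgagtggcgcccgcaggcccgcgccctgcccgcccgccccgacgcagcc
Pfkp, chr13:6648772-6649021, minus strand: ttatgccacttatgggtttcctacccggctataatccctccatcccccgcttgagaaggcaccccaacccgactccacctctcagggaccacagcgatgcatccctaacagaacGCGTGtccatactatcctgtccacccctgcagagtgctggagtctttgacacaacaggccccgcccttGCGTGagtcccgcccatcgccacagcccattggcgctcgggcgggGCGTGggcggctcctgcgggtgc

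**Figure D2:**
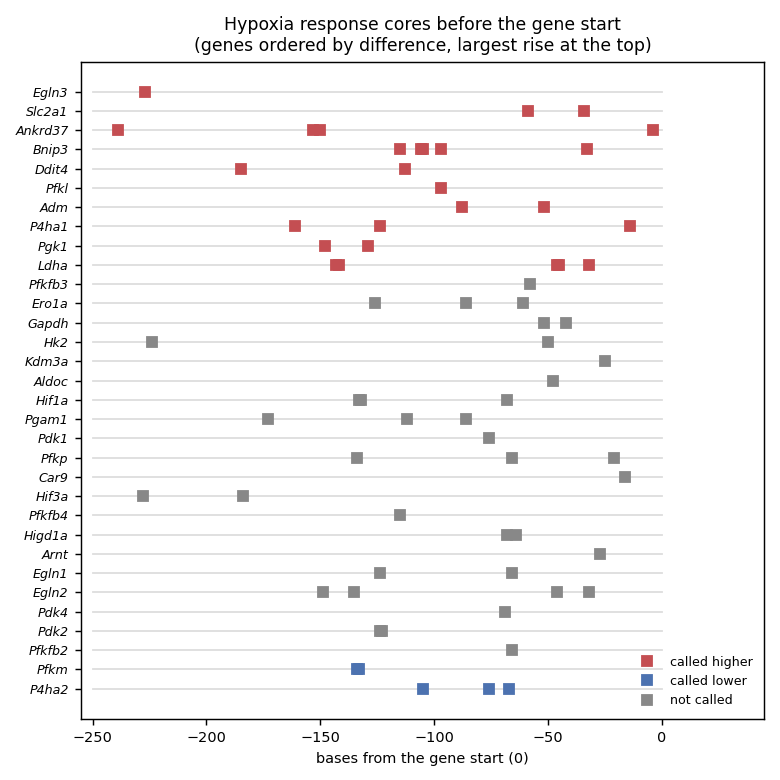
Position of each hypoxia response core in the 250 bases before the gene start (x axis, in bases, 0 being the start) for the 32 genes that held one, ordered from the largest rise to the largest fall. Red squares mark genes called higher, blue lower and grey not called; cores stand before genes of all 3 kinds.

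Both listed glucose transporters rose. Slc2a1 encodes GLUT1, the transporter of basal glucose uptake and the main one of endothelium. It ran from 5.00 to 5.50 (median 5.28) in Control and from 7.25 to 8.49 (median 7.54) in NICD-OE-HEC, a 5.44-fold rise (log2 difference 2.44, SE 0.18, adjusted p = 3.26e-07). Slc2a3 encodes GLUT3, a transporter of high affinity for glucose. It ran from 3.62 to 4.26 (median 4.04) in Control and from 5.20 to 6.78 (median 5.61) in NICD-OE-HEC (log2 difference 1.72, SE 0.21, adjusted p = 6.27e-05). In both genes every NICD-OE-HEC array was above every Control array, and NICD-OE-HEC 5 was the highest. On the same arrays Slc2a1 changed by 0.73 more than Slc2a3 (95% interval 0.43 to 1.02, exact permutation p = 0.00216, the smallest that 924 splits of the arrays give, adjusted p = 0.00617 over 20 pairs of related genes).

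Of the 14 glycolytic enzymes 5 rose and 1 fell, with a median difference of 0.25, and none reached a difference of 1. In the first steps, the hexokinases Hk1 and Hk2, which trap glucose as glucose-6-phosphate, gave no call (0.20 and 0.30, adjusted p = 0.356 and 0.101). The groups overlapped for both, Hk2 running from 4.42 to 5.07 in Control and from 4.97 to 5.27 in NICD-OE-HEC.

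Phosphofructokinase, the enzyme of the committed step, split by isoform. Pfkl, the liver-type subunit, ran from 6.40 to 7.01 (median 6.76) in Control and from 7.39 to 7.72 (median 7.46) in NICD-OE-HEC (log2 difference 0.81, SE 0.11, adjusted p = 1.36e-04). Pfkm, the muscle-type subunit, ran from 4.56 to 5.13 (median 4.80) in Control and from 4.06 to 4.77 (median 4.34) in NICD-OE-HEC (-0.46, SE 0.13, adjusted p = 0.0342). The groups did not overlap for Pfkl and overlapped for Pfkm, whose call was lost in 7 of 12 fits with 1 array left out (-0.54 to -0.39), those without Control 2, 3 or 6 or NICD-OE-HEC 1, 2, 3 or 4. It was also lost without Control 2 and NICD-OE-HEC 4 together (-0.37, adjusted p = 0.106). Pfkp, the platelet-type subunit, differed by -0.03 (95% interval -0.22 to 0.16). Pfkl changed by 1.26 more than Pfkm (95% interval 0.89 to 1.64) and by 0.84 more than Pfkp (95% interval 0.65 to 1.03), each at exact permutation p = 0.00216 and adjusted p = 0.00617.

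Further down, Tpi1, which interconverts the triose phosphates, ran from 6.68 to 7.20 (median 7.11) in Control and from 7.69 to 8.18 (median 7.83) in NICD-OE-HEC, without overlap (log2 difference 0.86, SE 0.12, adjusted p = 1.67e-04). Ldha, the lactate dehydrogenase subunit that favours lactate formation, ran from 7.78 to 8.30 (median 7.97) and from 8.34 to 8.85 (median 8.63), again without overlap (0.60, SE 0.11, adjusted p = 0.00267). Both enzymes were highest on NICD-OE-HEC 5.

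Pgk1 and Pkm, the kinases that form ATP in the pathway, rose by smaller steps and overlapped between groups. Pgk1 ran from 4.86 to 5.42 (median 5.06) in Control and from 5.22 to 6.06 (median 5.82) in NICD-OE-HEC (0.61, SE 0.15, adjusted p = 0.0148). Pkm, pyruvate kinase, ran from 8.40 to 8.74 (median 8.66) and from 8.71 to 9.20 (median 8.99; 0.38, SE 0.10, adjusted p = 0.0204). Both calls were lost without Control 2 and NICD-OE-HEC 4 (adjusted p = 0.0521 for Pgk1 and 0.0584 for Pkm). With a replicate block in limma both were lost too (adjusted p = 0.0575 for Pgk1 and 0.0631 for Pkm). Pkm was also lost without Control 4 or without NICD-OE-HEC 2, within a range of 0.33 to 0.43 over single arrays left out.

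The other enzymes were not called, and several could not be measured well. Gapdh, used by nearly all cells, was listed between 1.34 and 2.04 over all arrays, below the array median, so its difference of 0.34 (adjusted p = 0.101) cannot be read as one of the gene. Pgam1 was listed between 1.55 and 4.75 and had a 95% interval of -0.88 to 1.17. The neuronal enolase Eno2 differed by -0.09 and was below the array median in both groups. The aldolases Aldoa (0.14) and Aldoc (0.20) gave no call (adjusted p = 0.663 and 0.361). Gapdh, Pgam1, Ldha, Tpi1 and Pgk1 have processed copies elsewhere in the genome, and the sources used here do not say how probes shared with such copies were treated.

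**Figure D3:**
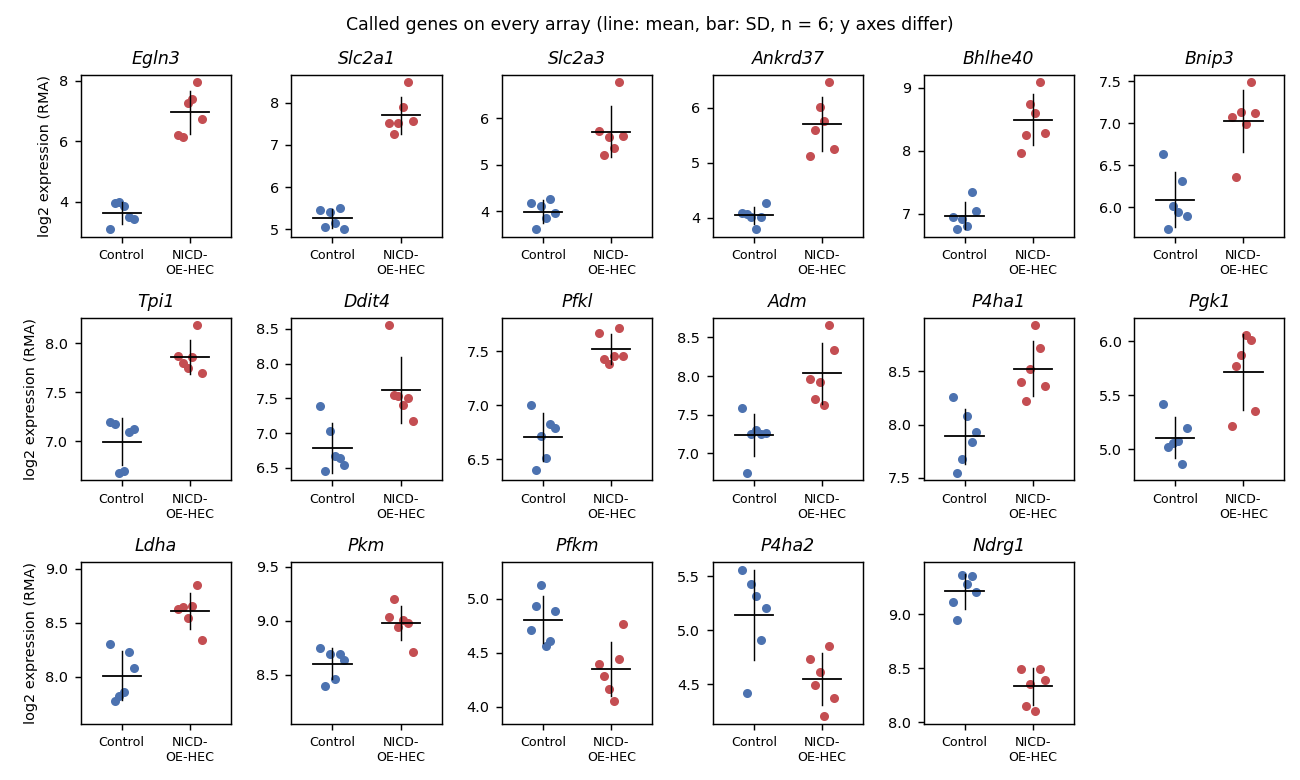
Log2 expression on every array for the 17 called genes, ordered by difference, with the mean (line) and SD (bar) of the 6 arrays in each group; the y axes differ between panels. The groups are apart for 10 genes and overlap for Bnip3, Ddit4, P4ha1, Pgk1, Pkm, Pfkm and P4ha2.

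None of the 6 regulators of flux passed the threshold in limma, 3 of them (Pfkfb2, Pfkfb3 and Pdk2) having an unadjusted p under 0.05, their differences running from -0.31 to 0.45 with a median of -0.16. The PFKFB enzymes set the level of fructose-2,6-bisphosphate, the activator of phosphofructokinase. Pfkfb3, the form with the strongest kinase activity and a known driver of endothelial glycolysis, ran from 5.47 to 6.21 (median 5.99) in Control and from 6.11 to 6.93 (median 6.34) in NICD-OE-HEC (0.45, SE 0.15, adjusted p = 0.0726, 95% interval 0.13 to 0.77). Pfkfb2 (-0.31, adjusted p = 0.105) and Pfkfb4 (-0.10, adjusted p = 0.766) lay on the other side of 0. Pfkfb3 passed the threshold when the dimmest 50% of probe sets were left out (limma, adjusted p = 0.0447) and with the hepatocyte marker mean as a covariate (0.73, adjusted p = 0.0157). Pfkfb2 passed it without Control 2 and NICD-OE-HEC 4 (-0.36, adjusted p = 0.0437) and without NICD-OE-HEC 4 alone (-0.38, adjusted p = 0.0293). On all arrays Pfkfb2 differed from Pfkfb3 by -0.76 (95% interval -1.13 to -0.39, exact permutation p = 0.00216, adjusted p = 0.00617).

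The pyruvate dehydrogenase kinases close the entry of pyruvate into mitochondria, and Pdk1 is a classical HIF target. Pdk1 ran from 6.04 to 6.32 in Control and from 6.18 to 6.49 in NICD-OE-HEC (0.14, adjusted p = 0.381, 95% interval -0.04 to 0.32). Pdk2 differed by -0.28 (adjusted p = 0.0643), and passed the threshold without the dimmest 50% of probe sets (adjusted p = 0.0356) or without Control 1 (-0.33, adjusted p = 0.0341). Pdk4, a kinase raised by fasting and fatty acids, differed by -0.22 (adjusted p = 0.503). The arrays of the NICD-OE-HEC group spread widely for Pdk4, from 7.10 to 8.20, where Control ran from 7.71 to 7.97.

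The HIF subunits gave no call. Hif1a, the alpha subunit most tied to glycolysis, ran from 7.45 to 7.86 in Control and from 7.66 to 7.97 in NICD-OE-HEC (0.15, 95% interval -0.05 to 0.35, adjusted p = 0.405). Epas1, which encodes the alpha subunit HIF2A abundant in endothelium, ran from 9.75 to 10.20 and from 9.77 to 10.26 (0.03, 95% interval -0.20 to 0.26, adjusted p = 0.925). The stable partner Arnt (-0.17, adjusted p = 0.232), Vhl, the recognition subunit of the ubiquitin ligase (-0.07, adjusted p = 0.735), and the inhibitory relative Hif3a, below the array median in both groups (-0.08, adjusted p = 0.755), were not called either. HIF is controlled mainly through the stability of the alpha protein, which these arrays do not measure.

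Among the oxygen sensors Egln3 stood apart from its relatives. Egln3, a prolyl hydroxylase that HIF itself induces, ran from 3.10 to 4.00 (median 3.67) in Control and from 6.15 to 7.95 (median 6.9985) in NICD-OE-HEC (log2 difference 3.31, SE 0.28, adjusted p = 1.25e-06). Its Control mean of 3.64 lay below the array median, where signal and background are not distinguished, and the size of the rise is not exact. Egln1, the main oxygen sensor, differed by -0.18 (95% interval -0.40 to 0.04) and Egln2 by -0.21 (95% interval -0.40 to -0.03, adjusted p = 0.151). On the same arrays the change of Egln1 minus that of Egln3 was -3.49 (95% interval -4.30 to -2.69), and that of Egln2 minus Egln3 was -3.53 (95% interval -4.33 to -2.72), each at exact permutation p = 0.00216 and adjusted p = 0.00617.

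**Figure D4:**
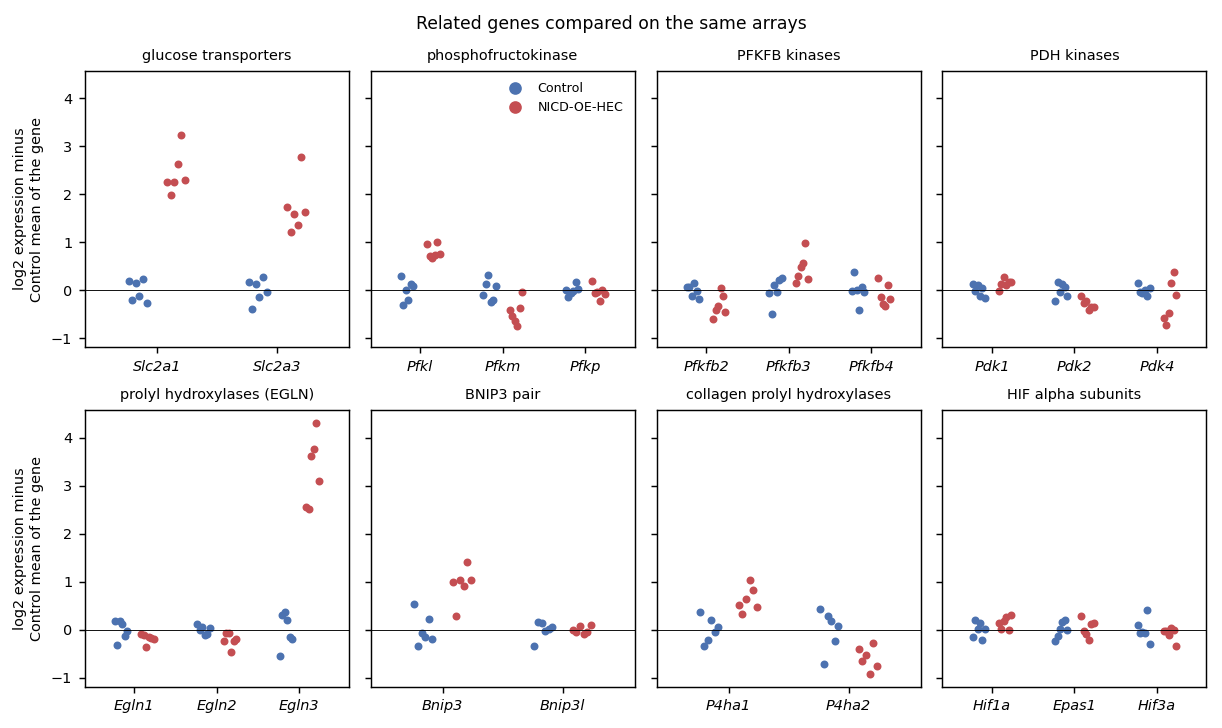
Log2 expression minus the Control mean of the same gene (y axis) on each Control (blue) and NICD-OE-HEC (red) array, for 8 families of related genes. Egln3 rose by 3.31 while Egln1 differed by -0.18 and Egln2 by -0.21, and P4ha1 and P4ha2 moved in opposite directions (0.64 and -0.59).

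Of the 13 other hypoxia-inducible genes 6 rose and 2 fell, with a median difference of 0.39. Ankrd37, an ankyrin repeat protein induced by HIF, ran from 3.80 to 4.27 (median 4.05) in Control and from 5.13 to 6.47 (median 5.68) in NICD-OE-HEC, without overlap (log2 difference 1.66, SE 0.19, adjusted p = 2.34e-05). Bhlhe40, a transcriptional repressor of the circadian and hypoxic responses, ran from 6.75 to 7.34 (median 6.94) and from 7.97 to 9.09 (median 8.44), also without overlap (1.52, SE 0.17, adjusted p = 1.78e-05). Adm encodes adrenomedullin, a vasodilator peptide that supports the endothelial barrier. It ran from 6.75 to 7.59 (median 7.26) and from 7.62 to 8.66 (median 7.95; 0.80, SE 0.17, adjusted p = 0.00673), with the groups just apart.

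Bnip3 and Ddit4, regulators of mitophagy and of mTOR, rose with overlapping groups. Bnip3 ran from 5.74 to 6.63 (median 5.98) in Control and from 6.36 to 7.49 (median 7.10) in NICD-OE-HEC (0.94, SE 0.18, adjusted p = 0.00240). Ddit4 ran from 6.45 to 7.40 (median 6.66) and from 7.17 to 8.55 (median 7.52; 0.83, SE 0.21, adjusted p = 0.0184). NICD-OE-HEC 1 was the highest of its group for Ddit4, and without it the difference was 0.65 (limma, adjusted p = 0.0168) and the call was kept. Bnip3l, the relative of Bnip3 in mitophagy, differed by less than 0.01 in size (95% interval -0.20 to 0.20), and Bnip3 changed by 0.95 more on the same arrays (95% interval 0.39 to 1.50, exact permutation p = 0.00433, adjusted p = 0.0108).

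P4ha1 and P4ha2, the alternative catalytic subunits of collagen prolyl hydroxylase, moved in opposite directions. P4ha1 ran from 7.55 to 8.26 (median 7.89) in Control and from 8.22 to 8.93 (median 8.46) in NICD-OE-HEC (0.64, SE 0.14, adjusted p = 0.00742). P4ha2 ran from 4.42 to 5.56 (median 5.26) and from 4.21 to 4.86 (median 4.55; -0.59, SE 0.17, adjusted p = 0.0423). Both overlapped between groups, by little for P4ha1 and, for P4ha2, through Control 2, which lay at 4.42 while the other Control arrays lay at 4.91 or above. The P4ha2 call was lost in 8 of 12 fits with 1 array left out (-0.74 to -0.51), all but those without Control 2 or 5 or NICD-OE-HEC 1 or 5. P4ha1 changed by 1.23 more than P4ha2 (95% interval 0.79 to 1.66, exact permutation p = 0.00216, adjusted p = 0.00617).

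Ndrg1, a stress-response gene that hypoxia commonly induces, fell. It ran from 8.94 to 9.37 (median 9.24) in Control and from 8.10 to 8.49 (median 8.37) in NICD-OE-HEC, without overlap, a 1.84-fold fall (log2 difference -0.88, SE 0.10, adjusted p = 3.21e-05). It was the one of the 43 genes to fall with no overlap between groups. The remaining 5 gave no call: the endoplasmic reticulum oxidase Ero1a (0.39, adjusted p = 0.0577), the histone demethylase Kdm3a (0.21, adjusted p = 0.255), the mitochondrial protein Higd1a (-0.13, adjusted p = 0.775), Bnip3l, and the carbonic anhydrase Car9 (-0.06, adjusted p = 0.873). Car9, often used as a marker of hypoxia, lay below the array median in both groups, between 2.34 and 3.15 over all arrays.

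Set side by side, 5 of 14 glycolytic enzymes and 6 of 13 other hypoxia-inducible genes rose, where 4.89% of all probe sets did. The largest rise was 0.86 among the enzymes (Tpi1) and 1.66 among the other genes (Ankrd37), and the median differences were 0.25 and 0.39. The mean over the enzymes ran from 5.17 to 5.43 in Control and from 5.44 to 5.77 in NICD-OE-HEC, and that over the other genes from 6.07 to 6.51 and from 6.54 to 7.01. The enzyme counts include Gapdh, Pgam1 and Eno2, and the other genes Car9, all below the array median in both groups. No test was made between these lists, whose members were chosen with results known.

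Further genes of the pathways were counted in lists written by role, with earlier results of these data known. The shares called in them are therefore a description and no independent support. Of 31 measured genes of sugar transport, lactate export and pyruvate use 16.1% were called, against 10.5% of all probe sets. That background includes dim probe sets and was larger without the dimmest 50% of them, so 16.1% is not read as a raised share. Of these 31 genes 3 rose and 2 fell, with a median of -0.03. Those that rose were the lactate transporters Slc16a3 (1.05, SE 0.15, adjusted p = 2.55e-04) and Slc16a1 (0.36, SE 0.11, adjusted p = 0.0419) and the hepatocyte-type glucose transporter Slc2a2 (0.83, adjusted p = 0.00479), on arrays whose hepatocyte markers were higher too. The intracellular transporter Slc2a8 (-0.77) and the urate carrier Slc2a9 (-0.44) fell. None of 7 pentose phosphate genes was called by limma at an adjusted p under 0.05, and 1 of them, Rpia, was under an unadjusted p of 0.05 (0.30, adjusted p = 0.159). Of 32 further oxygen-response genes 53.1% were called, against 10.5% of all probe sets. Of these 32 genes 15 rose and 2 fell, with a median of 0.35. Among them the collagen cross-linking genes Lox (1.40, SE 0.10, adjusted p = 4.37e-07) and Plod2 (1.62, SE 0.19, adjusted p = 4.37e-05; its Control mean of 3.27 lay below the array median, so the size is not exact) and the HIF co-factor antagonist Cited2 (0.86, SE 0.11, adjusted p = 8.92e-05) rose. Hif1an, the asparaginyl hydroxylase that restrains HIF, fell (-0.42, SE 0.11, adjusted p = 0.0250), as did the demethylase Kdm4c (-0.31).

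Among the genes that rose, the same arrays were often at the edge of their group. NICD-OE-HEC 5 was the highest of its group for 10 of the 14, and it also had the highest early-response mean (9.07, where the other 5 lay between 7.50 and 8.22). NICD-OE-HEC 2 was the lowest for 5 of them. In Control, array 1 was the highest for 9 and array 2 the lowest for 9, while array 5 had the highest early-response mean (7.60). The early-response means of the groups overlapped only at Control 5 and NICD-OE-HEC 1, so a fit with that mean as a covariate has little range in common between groups. With it 4 of the 17 calls were kept: Slc2a1 (1.75, adjusted p = 0.00121), Egln3 (2.54, adjusted p = 0.00653), Bhlhe40 (0.72, adjusted p = 0.0284) and Ndrg1 (-1.02, adjusted p = 0.00769). Lost calls were not all smaller: Ddit4 went from 0.83 to 1.23 while its SE went from 0.21 to 0.37, and P4ha2 from -0.59 to -0.67 (SE 0.17 to 0.32). Others were smaller as well as less precise, such as Slc2a3 (1.72 to 0.89, SE 0.21 to 0.29) and Ldha (0.60 to 0.31, SE 0.11 to 0.19). The neutrophil marker means of the groups did not overlap (at most 4.80 in Control, at least 5.14 in NICD-OE-HEC), so that covariate cannot be told apart from the group. With it in the fit those 4 and Ankrd37 were called, Pgk1 was 0.74 and P4ha2 was -1.04 without a call (adjusted p = 0.271 and 0.122), and Ddit4 was 0.06. With the hepatocyte marker mean, whose group ranges overlapped, 11 of the 17 were kept. Pfkm, Pgk1, Pkm, Ddit4, P4ha1 and P4ha2 were lost. Both the early-response and the neutrophil mean also cut the calls over all probe sets, from 1244 higher and 1422 lower to 378 and 290, and to 282 and 345.

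**Figure D5:**
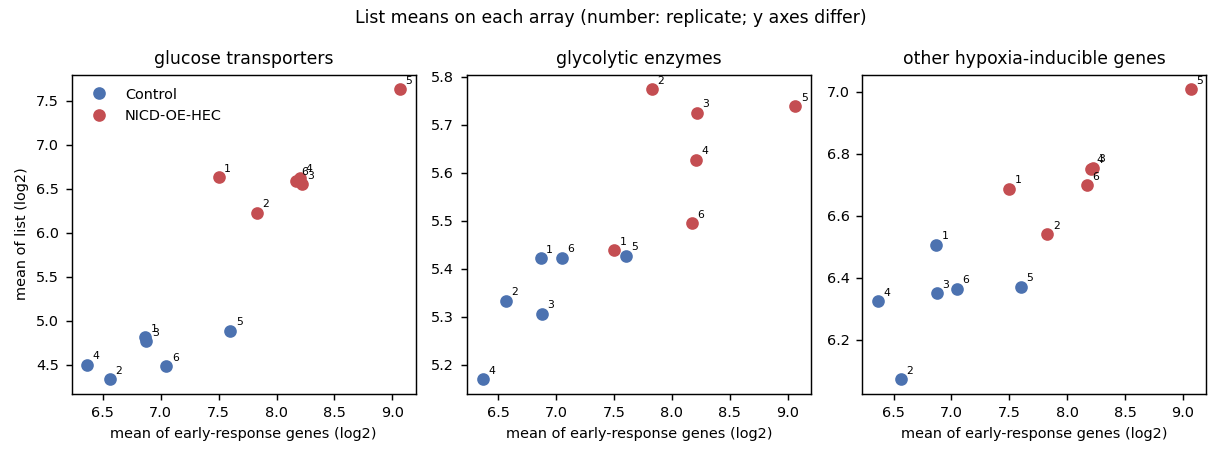
Mean log2 expression of the 2 glucose transporters, the 14 glycolytic enzymes and the 13 other hypoxia-inducible genes (y axes, which differ) against the mean of 16 early-response genes (x axis) on each Control (blue) and NICD-OE-HEC (red) array, numbered by replicate. NICD-OE-HEC 5, with the highest early-response mean (9.07), is the highest array for the transporters and the other hypoxia-inducible genes.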

How the data were processed

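Per the submitters' processing notes, the authors processed the Affymetrix arrays with RMA and deposited log2 expression values; the software, chip definition and build are not named in the sources used here. The table held 25428 probe sets, of which the platform annotation gave 1 symbol to 24705 and none to 723; for the 1 gene with several probe sets the brighter was used. With no detection calls deposited, a mean below the array median (3.67) was taken as not separable from background. Groups came from the labels, and all 12 arrays entered the comparison.

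A moderated linear model without covariates (limma 3.58.1, run under R 4.3.3) was fitted to all probe sets, with Benjamini-Hochberg adjustment over all of them and a call at an adjusted p under 0.05. Intervals are 95%. Related genes were compared by the difference of their values on each array, with a two-sided exact permutation test over 924 splits and adjustment over 20 pairs. The limma p-values set a difference against the spread between pooled samples, moderated over all probe sets. Those of the pairs are ranks among the 924 splits. With 6 pooled samples in a group, the number of arrays limits the precision. On simulated data, limma recovered 40.7% of changes of 0.5, 91.1% of changes of 1 and 100% of changes of 2 on the log2 scale. There the noise was independent between probe sets, and 81, 56 and 63 of 25428 probe sets carried changes of these sizes. In the comparison itself 10.5% of probe sets were called, so these shares need not hold for it.

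The genes, the lists and the arrays left out were chosen with earlier results of these data known. All 43 genes were described; those called were given in full. Promoters were taken from RefSeq (GRCm38.p6). Alternatives were another normalization, filters on dim probe sets, trend and weights in limma, a replicate block, a size threshold, marker means as covariates, and arrays left out.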

Additional observations from a re-analysis of the deposited data

Results flagged for a closer look

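In 3 of 86 groups of 6 arrays tested, 1 array lay far from the other 5, its gap to the nearest being above 0.625 of the group's range; chance alone gives such a gap in about 5% of groups. Slc2a3 was 6.78 on NICD-OE-HEC 5, where the nearest array of the group was at 5.73. Tpi1 was 8.18 on the same array, with the nearest at 7.87. Ddit4 was 8.55 on NICD-OE-HEC 1, with the nearest at 7.56.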

How the results depend on the processing

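Filters on dim probe sets, an intensity trend and array weights kept all 17 calls. Some of these added Ero1a, Hk2, Pfkfb3 or Pdk2, and single arrays left out added Ero1a, Hk2, Gapdh, Pfkfb2 or Pdk2. Centring, a second quantile normalization and averaging of probe sets also kept all 17, but could hardly change a value. Array medians already lay between 3.6743 and 3.6746, and only 1 gene had more than 1 probe set. The values were mixed on whether same-numbered samples were paired. Same-numbered deviations correlated at -0.105 to 0.219, over 0.1 in 3 of 6 pairs, and 3 of 6 correlated best with their own number. The hepatocyte, Kupffer cell and neutrophil marker means were highest on replicate 1 of both groups. In Control 1 and NICD-OE-HEC 1 they were 7.68 and 8.54, 8.90 and 9.36, and 4.80 and 7.14. The hepatocyte and Kupffer cell means were next highest on replicate 2 of both. The early-response mean was highest on replicate 5 of both groups and the erythroid mean on replicate 2. The cholangiocyte mean was highest on Control 5 and NICD-OE-HEC 2. The sinusoidal endothelial, stellate and mural, lymphocyte and platelet means also peaked on different numbers. In a fit with a replicate block the SE of Ddit4 went from 0.21 to 0.11 and that of Pgk1 from 0.15 to 0.17. A shared preparation of same-numbered samples was not tested, and the main fit left replicate number out. With the replicate block, 3 glycolytic enzymes were called higher, Pgk1 and Pkm being lost, and Pfkfb3 was gained (adjusted p = 0.0488), while all probe sets called moved to 1294 higher and 1213 lower.

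With a difference of at least 1 also required, 5 genes were higher and 0 lower (enzymes 0 and 0, other hypoxia-inducible genes 2 and 0, all probe sets 330 and 201). With the mean of early-response genes in the fit these were 3 and 1 (enzymes 0 and 0, other genes 1 and 1, probe sets 378 and 290). With the neutrophil mean they were 4 and 1 (enzymes 0 and 0, other genes 2 and 1, probe sets 282 and 345). With the hepatocyte mean 1 gene was lower (enzymes 3 and 0, other genes 1 lower, probe sets 822 and 825). Without Control 2 and NICD-OE-HEC 4, enzymes were 3 and 0, and Pfkfb2 was gained. With 1 array left out, lower calls ranged from 1 to 3 genes, 0 to 1 enzymes and 1 to 2 other genes, through Pfkm and P4ha2. The cause of these changes was not tested.

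Reversals were seen in genes that were not called. With the early-response covariate Aldoa was -0.42, Pgam1 -0.091, Pfkfb3 -0.16, Ero1a -0.048 and Bnip3l 0.0097. With the neutrophil covariate Epas1 was -0.14 and Bnip3l 0.13. With the hepatocyte covariate Bnip3l was 0.11 and Higd1a 0.062. Bnip3l was 0.0059 with array weights and, without Control 2 and NICD-OE-HEC 4, 0.049, where Pfkfb4 was 0.027. Leaving out 1 array gave ranges of -0.020 to 0.079 for Epas1, -0.071 to 0.029 for Bnip3l, -0.076 to 0.0098 for Pfkp, -0.16 to 0.0063 for Car9 and -0.17 to 0.47 for Pgam1. Signal near background limits Gapdh, Pgam1, Eno2, Hif3a and Car9.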
